A study of Mus musculus with 2 samples.

Results

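The 42 genes described here encode the machinery of chromosome segregation and cell division: the mitotic kinases, the activators of the anaphase-promoting complex, the spindle checkpoint, the kinetochore, mitotic kinesins, cytokinesis factors and condensin. They were taken by name and not by a cut on any measured value, though earlier results of these data were known. Each gene identifier of the deposited tables, without its version, was matched to its GENCODE M21 symbol, and all 42 were found among 43346 annotated gene identifiers, of which 42462 had a match. The cells were MEP, megakaryocyte-erythroid progenitors, from which the red cell and platelet lineages of the marrow arise. They were primary cells from male adult C57BL/6J mice aged 5 to 6 weeks, with no genetic change or treatment given in the labels. Total RNA of more than 200 bases was sequenced, with added spike-in RNAs, in 2 libraries of 100 cells each, which the labels number as biological replicates 1 and 2. Separate biosamples but a shared donor record are given for them. There was 1 group and no second condition, so no test between groups was possible. The genes are described by their level in each library, by the spread between the libraries, and by their standing among all protein-coding genes of the nuclear genome.

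In mitosis, cyclin B bound to the kinase CDK1 drives entry, and the Polo and Aurora kinases build the spindle. The checkpoint holds the anaphase-promoting complex (APC/C) inactive until each kinetochore is attached, after which CDC20 activates it and securin and cyclin B are destroyed. Condensin and topoisomerase II shape the chromosomes, and the central spindle and the contractile ring divide the cell. In dividing mammalian cells most genes of this kind are transcribed late in the cycle. They are held off in resting cells by the DREAM complex and activated by MuvB with B-MYB and FOXM1. These complexes act at a promoter element called the CHR (cell cycle genes homology region), often beside CCAAT boxes that bind NF-Y.

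Promoter windows of RefSeq, on GRCm38.p6 and running from 250 bases before to 50 bases after the gene start, were available for 36 of the 42 genes. Windows of Spc24, Tpx2, Kif20a, Aurkb, Incenp and Smc4 are not shown. The windows of the 4 most abundant members that held both motifs are printed to show how the motifs lie in a promoter. Counted from the RefSeq start, the nearest CHR lay close to it in Top2a and Cenpa and further upstream in Mki67 and Ncapd2. The GENCODE starts of Ncapd2 (125191701) and Cenpa (30666777) lie upstream of the RefSeq ones. Counted from those, the CHR lies close to the start in Ncapd2 and further downstream in Cenpa. The CCAAT boxes did not follow the split seen from the RefSeq starts: the nearest began at -48 in Ncapd2, at -58 in Top2a and at -86 in Cenpa. Each window runs 5′ to 3′ in the direction of the gene. Capitals mark a CCAAT box, read as CCAAT or as its reverse complement ATTGG, and a CHR, read as TTTGAA or as its reverse complement TTCAAA. The search covered both strands, and no marked motif overlaps another in these 4 windows.
Top2a (chr11:99024140-99024439, minus strand): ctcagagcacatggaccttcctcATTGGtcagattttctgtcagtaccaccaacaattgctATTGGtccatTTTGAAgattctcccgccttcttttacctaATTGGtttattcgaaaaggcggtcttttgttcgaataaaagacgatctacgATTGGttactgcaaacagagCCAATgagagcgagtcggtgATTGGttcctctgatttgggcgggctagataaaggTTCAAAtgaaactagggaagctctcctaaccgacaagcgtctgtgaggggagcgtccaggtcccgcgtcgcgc
Mki67 (chr7:135716330-135716629, minus strand): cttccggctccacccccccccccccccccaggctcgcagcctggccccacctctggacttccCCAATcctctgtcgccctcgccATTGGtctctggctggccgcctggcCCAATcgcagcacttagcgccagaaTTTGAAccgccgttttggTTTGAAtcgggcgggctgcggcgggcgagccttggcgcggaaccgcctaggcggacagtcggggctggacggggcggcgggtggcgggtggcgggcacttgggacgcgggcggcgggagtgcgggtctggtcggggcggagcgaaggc
Ncapd2 (chr6:125191537-125191836, minus strand): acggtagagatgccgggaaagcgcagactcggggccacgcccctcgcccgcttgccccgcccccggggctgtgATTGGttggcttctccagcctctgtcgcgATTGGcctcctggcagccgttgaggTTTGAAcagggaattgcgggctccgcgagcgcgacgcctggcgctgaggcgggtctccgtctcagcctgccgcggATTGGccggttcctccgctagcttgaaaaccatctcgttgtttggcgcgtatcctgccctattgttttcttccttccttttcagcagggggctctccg
Cenpa (chr5:30666636-30666935, plus strand): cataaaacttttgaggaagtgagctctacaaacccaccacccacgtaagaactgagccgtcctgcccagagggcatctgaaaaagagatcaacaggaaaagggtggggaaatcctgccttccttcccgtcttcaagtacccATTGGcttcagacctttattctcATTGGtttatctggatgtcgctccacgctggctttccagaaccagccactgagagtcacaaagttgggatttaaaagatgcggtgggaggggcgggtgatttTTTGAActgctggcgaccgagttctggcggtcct

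The Top2a window held 6 CCAAT boxes and 2 CHR motifs. The Mki67 window held 3 and 2, the Ncapd2 window 3 and 1, and the Cenpa window 2 and 1. In the Cenpa window the CHR lay just after the RefSeq gene start and both CCAAT boxes before it. The GENCODE start lies at the first base of the upstream box, so from there neither box lies before the start. A match is only a run of letters, and no binding was measured here.

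Across the 36 windows, a CHR was found for 28 genes (77.8%), and a CCAAT box also for 28 (77.8%). Of 4288 other protein-coding nuclear genes expressed at 10 TPM or more in both libraries, 14.5% had a CHR and 42.8% a CCAAT box. TPM is the authors' length-corrected share of all transcripts. Among all 27025 genes of the RefSeq table these shares were 20.2% and 41.1%. Both motifs stood together in 25 of the 36 mitotic genes (69.4%), against 6.18% of the other expressed genes. At least 2 CCAAT boxes were found for 18 of 36 (50%), against 18% of the other expressed genes. The excess was thus larger for the CHR than for the CCAAT box, and it was concentrated close to the start. A CHR beginning no more than 50 bases before the gene start, or after it, was found for 26 of 36 mitotic genes (72.2%), against 2.96% of the other expressed genes. Mki67, with CHR motifs beginning at positions -116 and -98 from the start, and Ncapd2, with one at -123, were the only genes with a CHR but none in that stretch. These positions are from the RefSeq start, and the GENCODE start of Ncapd2 lies further upstream, close to its CHR. For the CCAAT box in that stretch the shares were 18 of 36 (50%) and 16.1%. The 37 CHR matches lay at a median of 15 bases before the start and the 61 CCAAT matches at a median of 68 bases before it. Of the CHR matches, 26 read in the direction of the gene and 11 against it. The CCAAT boxes were split evenly, with 31 and 30.

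By role, both motifs were present in 4 of 5 windows of the cyclin B and spindle kinase genes, 4 of 5 of the cytokinesis genes and 5 of 6 of the condensin and chromosome structure genes. They were present in 3 of 4 windows of the APC/C and separase genes and 3 of 4 of the kinesins, and in fewer of the others, at 2 of 4 for the checkpoint, 1 of 2 for the passenger complex and 3 of 6 for the centromere group. A CHR was present in all 4 kinesin windows. Nuf2, Ncaph, Mad2l1, Pttg1 and Birc5 had neither run of letters in their windows, and Ccnb1, Bub1 and Cenpe had CCAAT boxes but no TTTGAA on either strand. For the CHR only this exact run was searched, and the windows follow RefSeq starts. The windows of Mad2l1 and Pttg1 do not hold the GENCODE gene start. Neither do those of Cdca8 and Kif4, which held both motifs. Among gene lists of neighbouring function, the other mitotic kinesins and spindle genes had a CHR in 10 of 14 windows (71.4%). Other mitotic lists had fewer: 4 of 7 (57.1%) for MIS12, KNL1 and RZZ, 3 of 13 (23.1%) for the inner kinetochore, 3 of 16 (18.8%) for the APC/C core and 0 of 7 for the phosphatases and kinases of mitotic entry. DNA replication genes, which are transcribed earlier in the cycle, had CCAAT boxes in 9 of 11 (81.8%) but a CHR in 2 of 11 (18.2%).

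**Figure D1:**
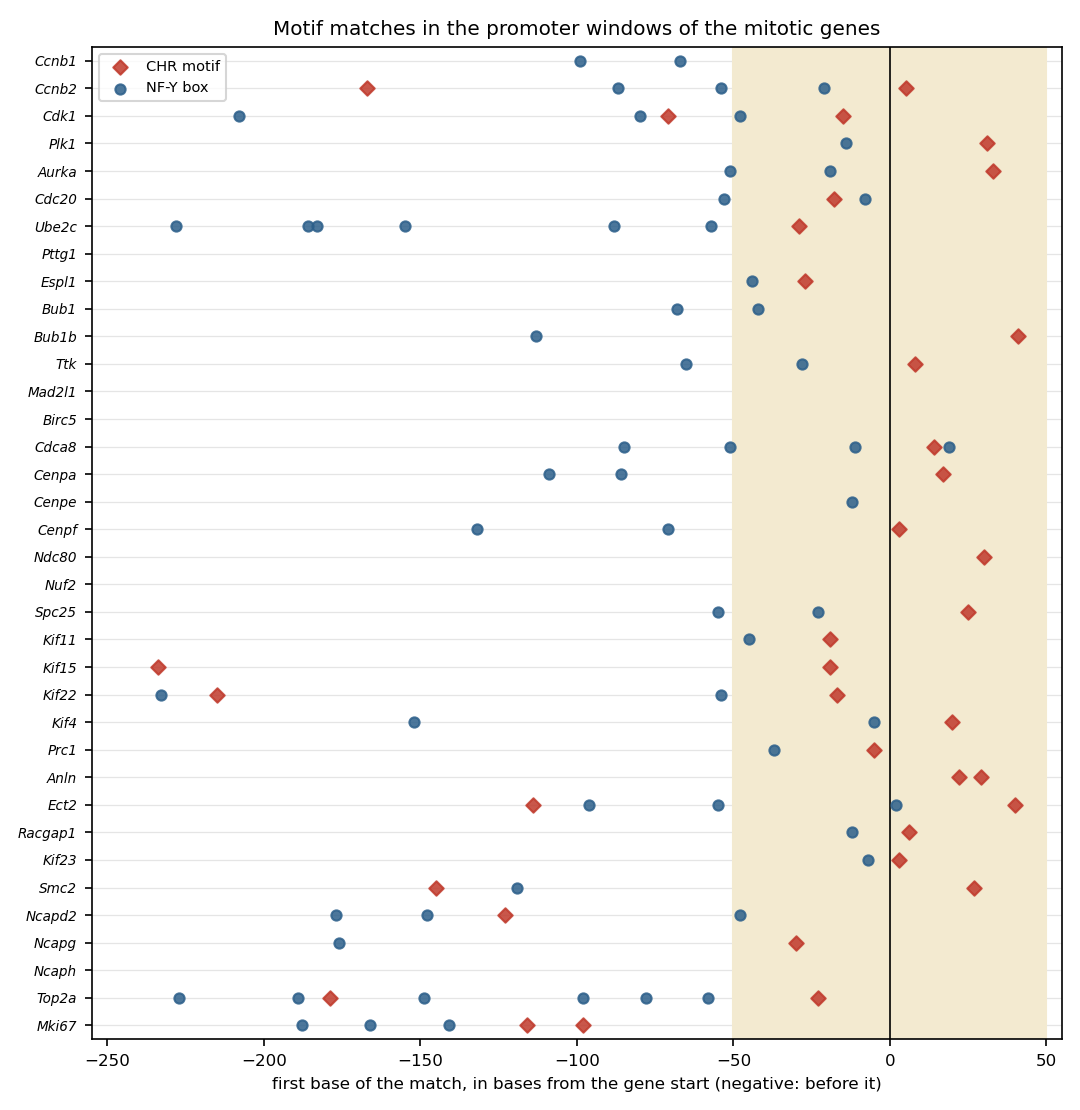
Positions of CHR motifs (red diamonds) and NF-Y boxes (CCAAT boxes, blue circles) in the promoter windows of 36 mitotic genes, as the first base of each match in bases from the gene start; genes run down the page by role and the shaded band covers 50 bases on either side of the start. For 26 of the 36 genes a CHR begins in the band, and for 18 of the 36 an NF-Y box does. By matches, 27 of the 37 CHR motifs and 19 of the 61 NF-Y boxes begin in it, and the others lie upstream.

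Replicate 1 held 30016974 expected counts, 13518448 of them on protein-coding nuclear genes, and replicate 2 held 51510347, with 25799923 on such genes. The mitotic genes took 101129 of these counts in replicate 1 and 207659 in replicate 2, or 0.748% and 0.805% of the protein-coding counts. No member had fewer than 310 counts in replicate 1 or 915 in replicate 2. To check the MEP label, defining markers were read: all 10 MEP and erythroid markers were detected at 10 TPM or more in both libraries, with a median of 134.5 TPM in replicate 1 against 155 in replicate 2. Of 8 megakaryocyte markers, only Itga2b, the platelet integrin alpha IIb, did so, at 11.4 TPM in replicate 1 against 14.5 in replicate 2. The libraries differed in RNA of other lineages. Granulocyte and monocyte markers summed to 1887 TPM in replicate 1 against 7.57 in replicate 2, where 8 of the 12 had no count. B cell markers summed to 10.8 TPM in replicate 1 against 162 in replicate 2, with 9 of 10 more than 2-fold lower in replicate 1. Their part in the mitotic gene levels was not tested. In bulk RNA, fewer dividing cells and less RNA per dividing cell cannot be told apart.

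Nearly all of the mitotic genes were expressed at a moderate to high level. Of the 42 genes, 39 stood at 10 TPM or more in both libraries, against 24.7% of all 21461 protein-coding nuclear genes. The exceptions were Espl1, Ndc80 and Kif23. The median member had 23.8 TPM in replicate 1 against 29.6 in replicate 2. Levels spanned 21.1-fold in mean TPM, from Kif23 at 7.68 ± 2.06 TPM to Top2a at 162 ± 12.2 TPM (SD, n = 2 libraries). Even Kif23 ranked above 69.5% of protein-coding nuclear genes, and the median member above 86.8%. Top2a, Mki67 at 155 ± 31.1 TPM, Ncapd2 at 150 ± 44.2 TPM and Cenpa at 133 ± 27.4 TPM were the 4 members above 100 TPM, and their order could not be resolved within the spread of the libraries. Another 35 members lay at 10 to 100 TPM. The genes lie on 16 chromosomes, with at most 7 on any (chromosome 2).

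**Figure D2:**
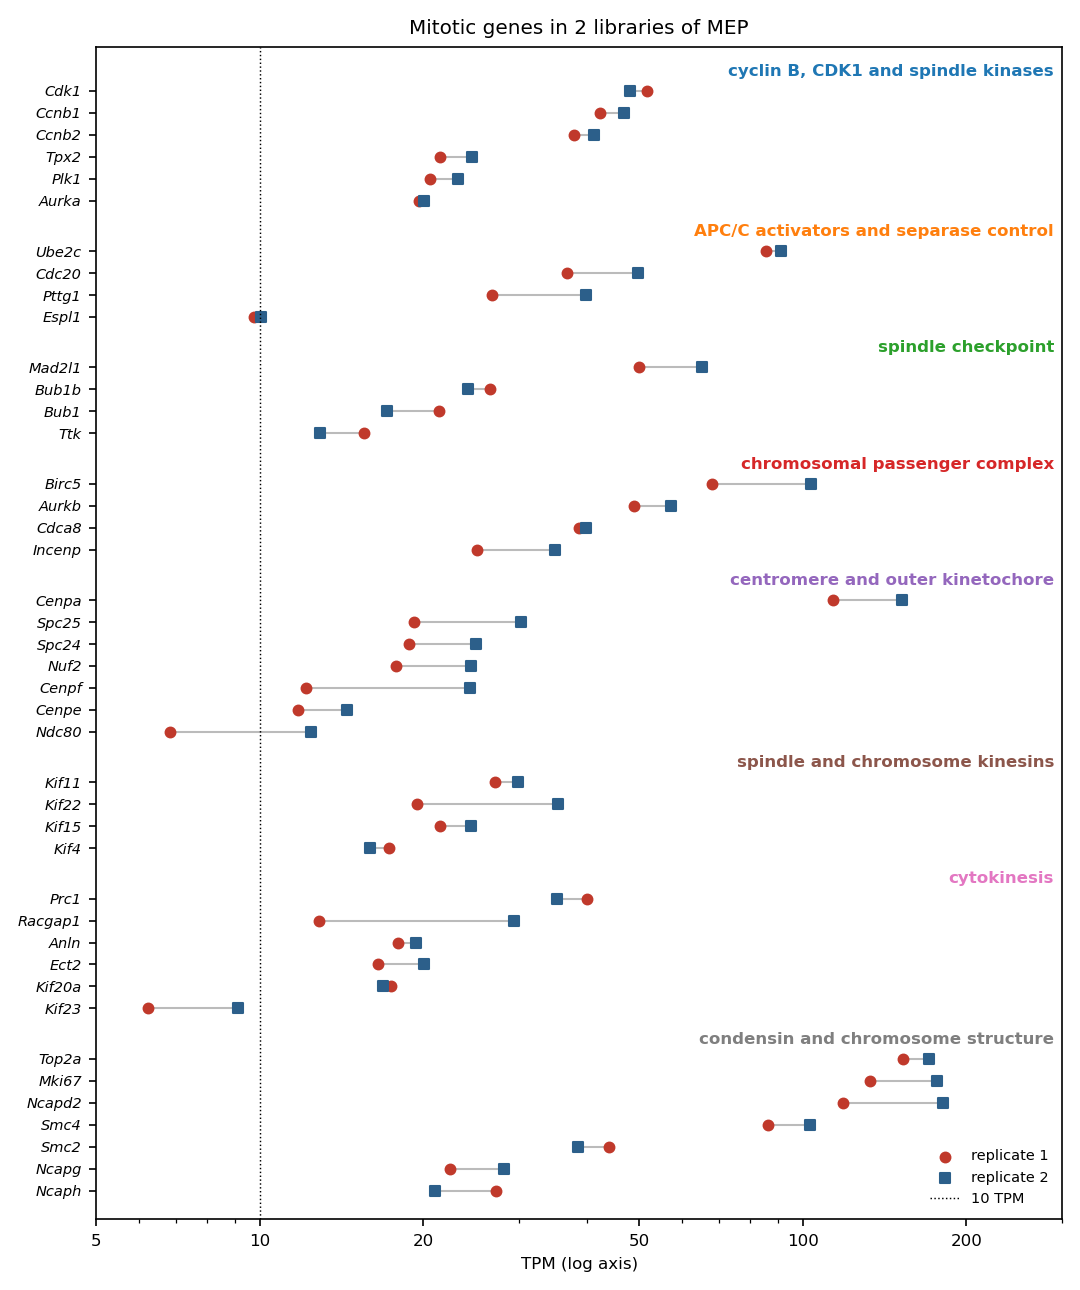
TPM (log axis) of each of the 42 mitotic genes in replicate 1 (red circles) and replicate 2 (blue squares), grouped by role and ordered within each group by mean level; a grey line joins the libraries and the dotted line marks 10 TPM. All but 3 genes lie right of the line in both libraries, and the condensin and chromosome structure group reaches the highest levels.

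Among the kinases of mitotic entry and the spindle, Cdk1, the catalytic subunit of the mitotic kinase, had 51.6 TPM in replicate 1 against 48.0 in replicate 2. Its cyclins were close to it: Ccnb1 had 42.2 TPM in replicate 1 against 46.8 in replicate 2, and Ccnb2 38.0 TPM in replicate 1 against 41.3 in replicate 2. The 3 subunits thus lay within 1.36-fold of one another in replicate 1 and 1.16-fold in replicate 2. Cdk1 was the highest of them in TPM, but the lowest in both libraries as counts per base of the longest transcript, and Ccnb1 was the highest as CPM (counts scaled to library size without a length correction) with TMM factors. Plk1, the Polo kinase that acts at centrosomes and kinetochores, had 20.6 TPM in replicate 1 against 23.2 in replicate 2. Aurka, the centrosomal Aurora kinase, had 19.6 TPM in replicate 1 against 20.1 in replicate 2, and Tpx2, which activates it on spindle microtubules, had 21.4 TPM in replicate 1 against 24.6 in replicate 2. Aurka and Tpx2 differed by 1.09-fold in replicate 1 and 1.22-fold in replicate 2, so kinase and activator were at nearly equal levels. The group had a median of 29.7 TPM in replicate 1 against 33.0 in replicate 2.

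The regulators of anaphase were unequal. Ube2c, the ubiquitin-conjugating enzyme that works with the APC/C, had 85.6 TPM in replicate 1 against 91.2 in replicate 2. Cdc20, the mitotic activator of the APC/C, had 36.8 TPM in replicate 1 against 49.8 in replicate 2. Pttg1 encodes securin, the inhibitor of separase, and had 26.8 TPM in replicate 1 against 39.9 in replicate 2. Espl1, which encodes separase, the protease that opens cohesin, was the lowest of the group at 9.74 TPM in replicate 1 against 10.1 in replicate 2. The inhibitor's transcripts exceeded those of the protease 2.75-fold in replicate 1 and 3.96-fold in replicate 2. Counts divided by the length of each gene's longest transcript put this ratio at only 1.06 in replicate 1 and 1.44 in replicate 2, where the longest Pttg1 transcript, of 1674 bases, held 4.65% and 6.93% of the gene's TPM.

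Within the spindle checkpoint, Mad2l1, whose product MAD2 binds and sequesters CDC20, was highest, at 49.95 TPM in replicate 1 against 65.2 in replicate 2. Bub1b, which encodes the checkpoint protein BUBR1, had 26.6 TPM in replicate 1 against 24.2 in replicate 2. Bub1, the kinetochore kinase that marks the inner centromere, had 21.4 TPM in replicate 1 against 17.1 in replicate 2. Ttk encodes MPS1, the kinase that starts checkpoint signalling, and had 15.6 TPM in replicate 1 against 12.9 in replicate 2. Bub1b, Bub1 and Ttk were each higher in replicate 1, whereas Mad2l1 was lower there, as most of the set was; the directions were the same as CPM. Mad2l1 exceeded Ttk 3.21-fold in replicate 1 and 5.06-fold in replicate 2.

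The chromosomal passenger complex corrects faulty attachments at the centromere and later moves to the central spindle. Birc5, which encodes its targeting subunit survivin, had 67.9 TPM in replicate 1 against 103 in replicate 2. Aurkb, its kinase, had 48.9 TPM in replicate 1 against 57.2 in replicate 2. Cdca8, the borealin subunit, had 38.7 TPM in replicate 1 against 39.9 in replicate 2, and Incenp, the scaffold that activates the kinase, had 25.2 TPM in replicate 1 against 35.0 in replicate 2. The order Birc5, Aurkb, Cdca8, Incenp was the same in both libraries in TPM, but by the longest transcript Birc5 was below Incenp in both, at a ratio of 0.837 in replicate 1 and 0.849 in replicate 2. Aurkb exceeded Aurka 2.49-fold in replicate 1 and 2.84-fold in replicate 2, but by only 1.33-fold and 1.71-fold when transcripts annotated as protein-coding were counted alone.

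At the centromere, Cenpa, the histone H3 variant that marks centromeric chromatin, stood far above the rest, at 114 TPM in replicate 1 against 153 in replicate 2. It did so too over its coding transcripts, at 80.7 TPM in replicate 1 against 79.9 in replicate 2. The 4 subunits of the NDC80 complex, which grips microtubule ends, were lower. Spc25 had 19.2 TPM in replicate 1 against 30.2 in replicate 2, Spc24 18.8 TPM in replicate 1 against 25.0 in replicate 2, and Nuf2 17.8 TPM in replicate 1 against 24.5 in replicate 2. The subunit that gives the complex its name, Ndc80, had 6.83 TPM in replicate 1 against 12.4 in replicate 2. Ndc80 was the lowest subunit in both libraries, and 3 of the 4 subunits lay close together. Cenpe, the kinesin that carries chromosomes to the spindle equator, had 11.8 TPM in replicate 1 against 14.5 in replicate 2. Cenpf, a large corona protein, had 12.2 TPM in replicate 1 against 24.4 in replicate 2. All 7 genes of the group were lower in replicate 1 in TPM, and all but Cenpf also as CPM with TMM factors.

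The kinesins covered a narrow range. Kif11, the motor that separates the spindle poles, had 27.1 TPM in replicate 1 against 29.9 in replicate 2. Kif15, which assists it, had 21.4 TPM in replicate 1 against 24.5 in replicate 2. Kif22, a chromosome-arm motor, had 19.4 TPM in replicate 1 against 35.5 in replicate 2, and Kif4, the chromokinesin that also works with PRC1 at the central spindle, had 17.3 TPM in replicate 1 against 16.0 in replicate 2. Kif22 stood out by its difference between libraries, of -0.84 on the log2(TPM + 1) scale, replicate 1 minus replicate 2, while the other 3 kinesins differed by at most 0.18 in size.

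Cytokinesis genes had the lowest group median in TPM, 17.0 TPM in replicate 1 against 19.7 in replicate 2. By the longest transcript, and as CPM, the centromere group was lower. Prc1, which bundles the antiparallel microtubules of the central spindle, was highest, at 40.0 TPM in replicate 1 against 35.2 in replicate 2. Anln, the ring scaffold anillin, had 17.9 TPM in replicate 1 against 19.4 in replicate 2. Ect2, the exchange factor that activates RhoA at the equator, had 16.5 TPM in replicate 1 against 20.0 in replicate 2. Kif20a, a central spindle motor, had 17.4 TPM in replicate 1 against 16.9 in replicate 2. Centralspindlin is built from Racgap1, its GTPase-activating subunit, with 12.9 TPM in replicate 1 against 29.4 in replicate 2, and Kif23, its motor, with 6.22 TPM in replicate 1 against 9.13 in replicate 2. Racgap1 thus exceeded Kif23 in both libraries, 2.07-fold in replicate 1 and 3.22-fold in replicate 2.

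Condensin and the other chromosome structure genes were the most abundant group, with a median of 86.4 TPM in replicate 1 against 103 in replicate 2. Top2a, the topoisomerase that untangles sister chromatids, had 153 TPM in replicate 1 against 170 in replicate 2. Mki67, which encodes the proliferation antigen Ki-67 that coats mitotic chromosomes, had 133 TPM in replicate 1 against 177 in replicate 2. The condensin ATPases Smc4 and Smc2 had 86.4 TPM in replicate 1 against 103 in replicate 2, and 44.0 TPM in replicate 1 against 38.6 in replicate 2. Of the other condensin I subunits, Ncapd2 had 118 TPM in replicate 1 against 181 in replicate 2. Ncapg had 22.4 TPM in replicate 1 against 28.1 in replicate 2, and Ncaph, the kleisin that closes the ring, 27.2 TPM in replicate 1 against 21.04 in replicate 2. The largest and smallest condensin I subunits therefore differed 5.29-fold in replicate 1 and 8.59-fold in replicate 2, the widest span among the 7 complexes and partner pairs listed.

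That span came with transcripts not annotated as protein-coding, which were short in Ncapd2. The most abundant Ncapd2 transcript in both libraries was a retained-intron transcript of 894 bases. It held 40.2% of the gene's TPM in replicate 1 and 41.5% in replicate 2. The full-length coding transcript of 4629 bases held 26.7% and 18.9%. For Smc4 the leading transcript, of 4057 bases, was annotated as a target of nonsense-mediated decay. It was not short: the most abundant coding transcript of Smc4 had 3983 bases. Coding transcripts made up 40.5% of Smc4 in replicate 1 and 30.4% in replicate 2. Counted over protein-coding transcripts alone, Smc2 had 32.4 TPM in replicate 1 against 31.8 in replicate 2, Smc4 34.9 TPM in replicate 1 against 31.3 in replicate 2, and Ncapd2 31.6 TPM in replicate 1 against 34.2 in replicate 2. Ncapg had 16.4 TPM in replicate 1 against 19.8 in replicate 2, and Ncaph 17.5 TPM in replicate 1 against 17.6 in replicate 2. On this scale Smc2, Smc4 and Ncapd2 were nearly level with one another, Ncapg and Ncaph stood below them in both libraries, and the span shrank to 2.12-fold in replicate 1 and 1.94-fold in replicate 2. This alternative was chosen after the data were seen. The sharing of reads among overlapping transcripts is an estimate of the authors' quantification, so the split itself carries an error that was not measured.

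**Figure D3:**
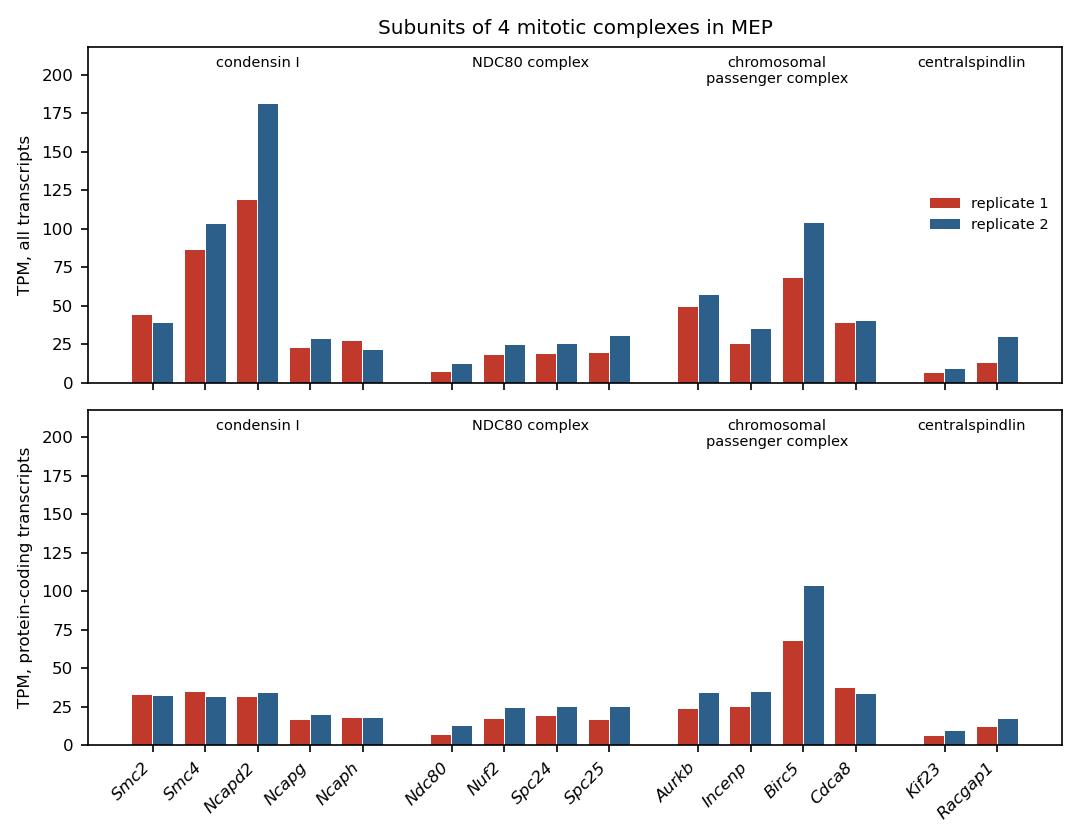
TPM of the subunits of condensin I, the NDC80 complex, the chromosomal passenger complex and centralspindlin in replicate 1 (red bars) and replicate 2 (blue bars), over all transcripts (upper panel) and over protein-coding transcripts only (lower panel). In the lower panel Smc2, Smc4 and Ncapd2 lie within 31.3 to 34.9 TPM, while the NDC80 subunits change little.

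Spans of the other complexes changed less with this choice. The NDC80 subunits spanned 2.82-fold in replicate 1 and 2.43-fold in replicate 2 over all transcripts, and 2.75-fold and 2.03-fold over coding transcripts. The passenger complex spanned 2.70-fold and 2.96-fold, and 2.91-fold and 3.09-fold over coding transcripts, but there Aurkb and Cdca8 took the lowest place in replicates 1 and 2 instead of Incenp. For centralspindlin, coding transcripts gave a Racgap1 excess of 1.95-fold in replicate 1 and 1.90-fold in replicate 2, closer between the libraries than over all transcripts. The lead of the chromosome structure group became slight in replicate 1 and was lost in replicate 2. Its median was 32.4 TPM in replicate 1 against 31.8 in replicate 2 over coding transcripts, beside 31.1 TPM in replicate 1 against 34.6 in replicate 2 for the passenger complex. At the low end, the cytokinesis genes had medians of 14.8 TPM in replicate 1 against 17.1 in replicate 2 over coding transcripts and the spindle checkpoint genes 17.5 TPM in replicate 1 against 15.7 in replicate 2, so which group was lowest differed between the libraries.

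Of the 42 genes, 13 had only 1 transcript in the annotation used and 29 had several, up to 14. Both libraries had the same leading transcript for 23 of the 29, or 79.3%, beside 72.3% of 5838 protein-coding nuclear genes with several transcripts and at least 5 TPM. The exceptions were Tpx2, Pttg1, Cenpf, Spc25, Prc1 and Ect2. In 27 of the 29 genes the leading transcript was protein-coding in both libraries, beside 77.6% of the same 5838 genes. The median share of coding transcripts was 75.5% in replicate 1 and 83.4% in replicate 2, beside 82.2% and 83.2% over the 5838 genes. The median share of retained-intron transcripts was 11.8% in replicate 1 and 11.6% in replicate 2, beside 2.41% and 2.64% over those genes, many of which have no such transcript annotated. Retained-intron transcripts were annotated for 23 members, which held a median of 19.9% of their TPM in them in replicate 1 and 16.5% in replicate 2. In 13 of these 23 genes (56.5%) the share was 10% or more in both libraries, close to the 51.8% of all 3584 protein-coding nuclear genes with such a transcript and at least 5 TPM. Over those 3584 genes the median share was 16.4% in replicate 1 and 15.7% in replicate 2. For Top2a, a non-coding transcript of 803 bases held 29.3% in replicate 1 and 34.5% in replicate 2, and coding Top2a stood at 73.2 TPM in replicate 1 against 64.8 in replicate 2. Mki67, with only 1 transcript, of 10075 bases, was untouched by such splits and led the set over coding transcripts.

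Between the libraries the mitotic genes differed little. Their median difference was close to that of genes in general, and their spread was smaller. Of the 42, 33 (78.6%) were lower in replicate 1, beside 67.3% of 9982 protein-coding nuclear genes with a mean of at least 1 TPM. The median difference was -0.21 on the log2(TPM + 1) scale, replicate 1 minus replicate 2, beside -0.18 for those 9982 genes, a gap of -0.03. Relative to -0.18, 19 members lay above and 23 below. Scaled by TMM factors, 22 members were lower in replicate 1 and 20 higher, with a median of -0.02. The SD of the members' differences was 0.34, beside 0.58 for all 9982 genes and 0.47 for the 6254 genes in the members' range of TPM. Counting error alone would give a median SD of 0.05 per gene and at most 0.09, well under the spread of the members. Across the 42 genes, which share both libraries, Spearman's rho between the libraries' levels was 0.902.

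Racgap1 was the only member past 2-fold in TPM, beside 7.58% of the 9982 genes and 3.74% of those in the members' range of TPM. Its difference was -1.13, and its TPM ratio, replicate 1 over replicate 2, was 0.438, with an exact interval of 0.403 to 0.475 at 95% that covers counting error only. Its coding transcript had 12.1 TPM in replicate 1 against 17.4 in replicate 2. Its retained-intron transcripts of 962 and 687 bases were listed at 0 in replicate 1 and at 5.59 TPM and 5.02 TPM in replicate 2. Over coding transcripts its difference was -0.49, and as CPM with TMM factors it was -0.57. Cenpf, the next lowest at -0.95, changed sign to 0.24 on the CPM scale, but over coding transcripts it was the only member past 2-fold, at -1.09. Its full-length transcript of 11130 bases had 7.82 TPM in replicate 1 against 7.05 in replicate 2, whereas a coding transcript of 358 bases was listed at 0 in replicate 1 and at 12.3 TPM in replicate 2. The difference of Cenpf in TPM therefore lay in a short transcript. Kif22 and Ndc80, with 1 transcript each, kept theirs on both scales. Kif22 differed by -0.84 in TPM and -0.66 in CPM, and Ndc80 by -0.78 and -0.63. At the other end, Ncaph at 0.36, Bub1 at 0.30 and Ttk at 0.26 were the members highest in replicate 1, and all 3 were also higher there in CPM.

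**Figure D4:**
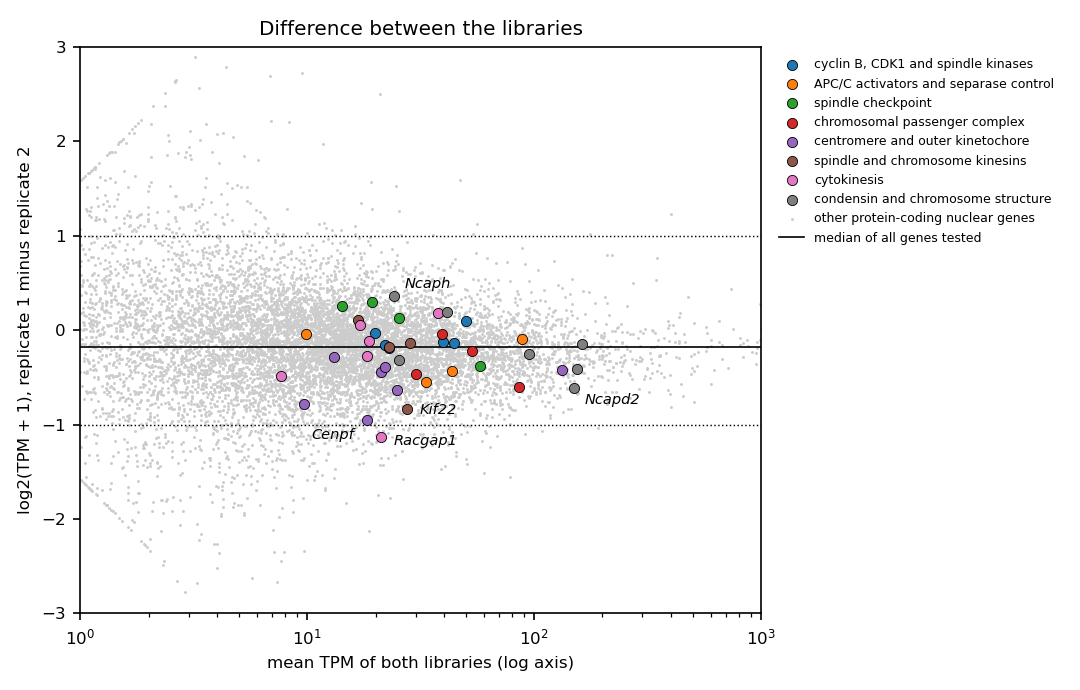
Difference between the libraries, log2(TPM + 1) of replicate 1 minus replicate 2, against the mean TPM (log axis) for the 42 mitotic genes (coloured by role) and for other protein-coding nuclear genes with a mean of at least 1 TPM (grey); the solid line is the median of all genes, -0.18, the dotted lines mark 2-fold, and 103 genes lie outside the axes. The mitotic genes lie around the median line, and Racgap1 is the only one below the lower dotted line.

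Genes that work beside the set were mostly expressed as well. All 3 subunits that belong only to condensin II stood at 10 TPM or more in both libraries, Ncaph2 highest at 64.5 TPM in replicate 1 against 67.8 in replicate 2, and Ncapd3 next at 23.6 TPM in replicate 1 against 19.7 in replicate 2. The 12 genes of cohesin, the ring that holds sister chromatids, and its loader all did so, led by Smc1a at 52.6 TPM in replicate 1 against 72.6 in replicate 2 and Wapl at 67.9 TPM in replicate 1 against 48.8 in replicate 2. Of 17 APC/C core and partner genes, 16 did, led by Ube2s, which extends ubiquitin chains, at 80.7 TPM in replicate 1 against 154 in replicate 2, and Anapc5 at 81.9 TPM in replicate 1 against 88.2 in replicate 2.

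The inner kinetochore was lower. The 13 constitutive centromere genes had a median of 12.2 TPM in replicate 1 against 18.8 in replicate 2, with Cenph at 24.2 TPM in replicate 1 against 47.1 in replicate 2 and Cenpn at 19.9 TPM in replicate 1 against 26.6 in replicate 2 as the highest. Of 9 genes of the MIS12, KNL1 and RZZ modules, 6 reached 10 TPM in both libraries, led by Pmf1 at 71.3 TPM in replicate 1 against 87.5 in replicate 2 and Zwint at 62.2 TPM in replicate 1 against 63.1 in replicate 2. Cenpa thus exceeded every inner kinetochore gene listed in both libraries. Other checkpoint genes were led by Bub3, at 41.6 TPM in replicate 1 against 43.0 in replicate 2, with Trip13 next at 13.4 TPM in replicate 1 against 15.8 in replicate 2.

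Among the phosphatases and kinases of mitotic entry, Arpp19, an inhibitor of the phosphatase PP2A, had 98.8 TPM in replicate 1 against 84.5 in replicate 2, followed by Pbk at 23.6 TPM in replicate 1 against 31.1 in replicate 2. Of the other spindle genes, Tacc3 had 55.03 TPM in replicate 1 against 63.3 in replicate 2 and its partner Ckap5 34.9 TPM in replicate 1 against 41.1 in replicate 2. Of the other cytokinesis genes, Rhoa, the GTPase of the contractile ring, had 113 TPM in replicate 1 against 69.2 in replicate 2, and Sept7 had 41.5 TPM in replicate 1 against 49.5 in replicate 2. Of 12 regulators of late-cycle transcription, from DREAM, MuvB, NF-Y and their activators, 10 reached 10 TPM in both libraries, led by E2f4, a DREAM subunit, at 132 TPM in replicate 1 against 154 in replicate 2, and Rbbp4 at 78.0 TPM in replicate 1 against 59.8 in replicate 2. The 2 that did not, named after their values were seen, were the MuvB genes Lin9, at 7.15 TPM in replicate 1 against 15.1 in replicate 2, and Lin52, at 6.94 TPM in replicate 1 against 7.24 in replicate 2.

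Most of the germline and meiotic genes listed stayed at or near 0 TPM, in contrast to the mitotic members. Of 10 germline and meiotic counterparts, none was at 10 TPM in both libraries, and 8 stayed under 1 TPM in each. Aurkc, the germline Aurora kinase, and Smc1b, Sycp1, Majin and Meikin had 0 counts in both libraries. For Aurkc, 3 counts, the limit that a count of 0 allows, correspond to 0.168 TPM in replicate 1 against 0.0993 in replicate 2. Ccnb3, the meiotic cyclin B, had 0.16 TPM in replicate 1 and 0 in replicate 2, Tex14 had 0.19 TPM in replicate 1 against 0 in replicate 2, and Sycp3 had 0 TPM in replicate 1 against 0.65 in replicate 2. Rec8, the meiotic kleisin, was the highest at 7.91 TPM in replicate 1 against 18.9 in replicate 2, and Stag3 had 5.49 TPM in replicate 1 against 7.36 in replicate 2. Of the other Polo kinases, Plk4, the centriole kinase, had 21.3 TPM in replicate 1 against 25.9 in replicate 2, about the level of Plk1. Plk2, Plk3 and Plk5 were each under 1 TPM in both libraries.

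DNA replication genes stood higher than the mitotic set. All 15 reached 10 TPM in both libraries, with a median of 68.3 TPM in replicate 1 against 73.6 in replicate 2, led by Pcna, the polymerase clamp, at 299 TPM in replicate 1 against 352 in replicate 2 and Mcm3 at 182 TPM in replicate 1 against 228 in replicate 2. Their median difference between the libraries was -0.20, beside -0.21 for the mitotic genes. Genes of quiescence and cycle exit had a median of 8.55 TPM in replicate 1 against 7.62 in replicate 2. The highest were the pocket proteins Rbl1, at 31.4 TPM in replicate 1 against 28.8 in replicate 2, and Rb1, at 20.0 TPM in replicate 1 against 29.2 in replicate 2, and the CDK inhibitor Cdkn1c was under 1 TPM in both libraries.

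**Figure D5:**
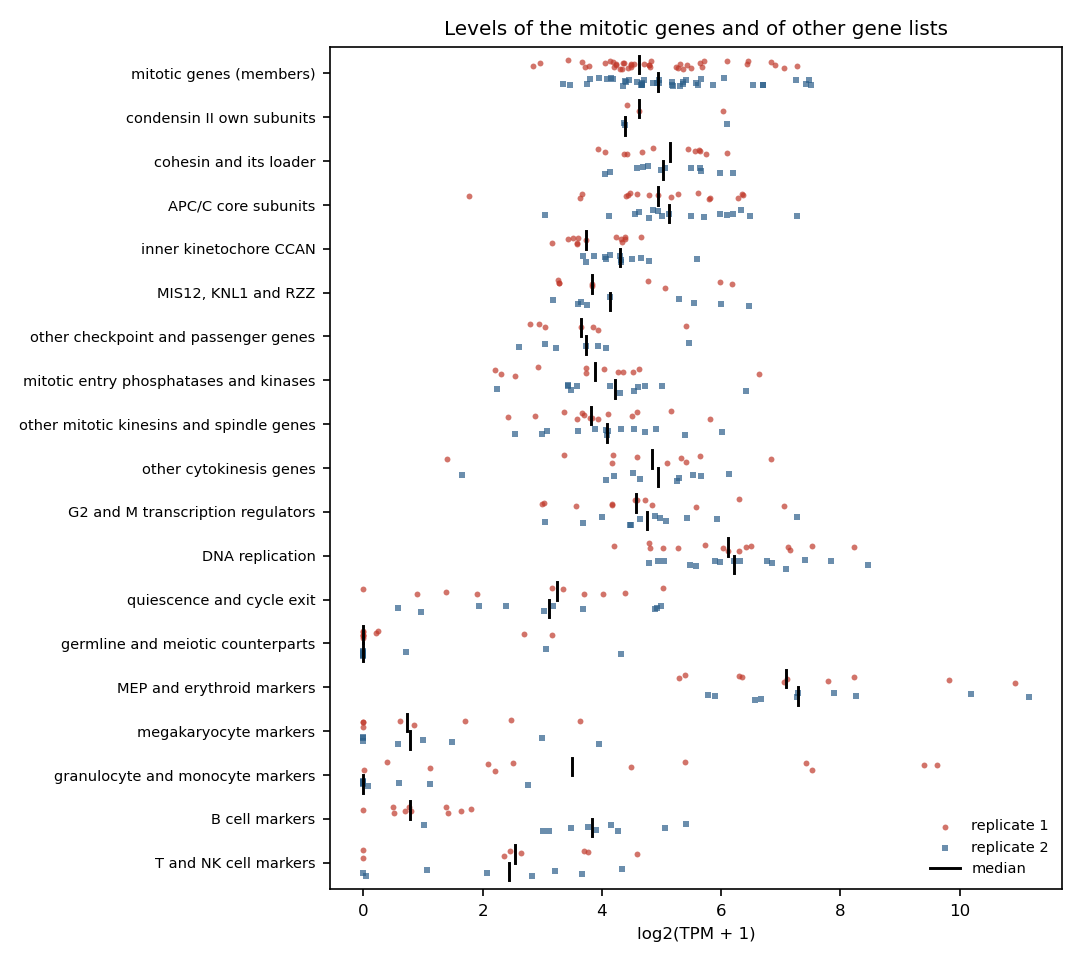
Levels, as log2(TPM + 1), of the 42 mitotic genes and of 18 of the 19 other gene lists (the other Polo kinases are not drawn) in replicate 1 (red circles, upper row of each list) and replicate 2 (blue squares, lower row); each point is a gene and black bars are medians. The mitotic genes overlap the lists of their partner complexes, replication genes lie higher, 8 of the 10 germline counterparts lie at or near 0, and the granulocyte and B cell markers differ between the libraries.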

How the data were processed

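Total RNA-seq of 2 MEP libraries was read from the deposited gene and transcript tables. The README deposited with them names mm10 and GENCODE M4 as build and annotation; no aligner or quantifier is named there, and their names were not given in the sources used here, although the column names match RSEM output. Expected counts, as deposited, are estimates that can be fractional. The authors scaled TPM by effective length to a fixed sum over all features. The percent of a gene in each transcript, its share of the gene's TPM, was computed by the authors. The authors also deposited FPKM values, score columns (posterior SDs of counts) and signal columns (bounds of credibility intervals), none of which gives a result here.

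Names, biotypes and transcript types came from GENCODE M21 on GRCm38, by identifier without version; the types are thus of a later release than the quantification. The 42 members, the 8 subgroups and the 19 other lists were chosen with earlier results of these data known. All members are named, with the 2 highest genes of each other list, those under 1 TPM in both libraries, and other-lineage markers past a 10-fold difference; some genes that the rule takes are left out of the text. Promoters printed are those of the 4 members of highest mean TPM whose window holds both motifs; the proteins that the rule also names are not shown. The orientation of the windows was checked: bases just after the start were found on the sense strand of a GENCODE transcript for 26 of 36 members.

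Differences were log2(TPM + 1), which understates changes of low genes, replicate 1 minus replicate 2. Intervals of ratios are 95% Clopper-Pearson intervals (exact) from rounded expected counts. Like the floor of 3 counts, they cover only counting error. No p-value was computed, since the 2 libraries form 1 group. The labels give separate biosamples and 1 donor record, so the spread may be technical. TMM factors (edgeR 4.0.16; 0.932 in replicate 1 and 1.07 in replicate 2) and DESeq2 1.42.0 size factors, both from rounded counts in R 4.3.3, served as alternatives beside other pseudocounts, minimums, scalings, posterior means and each library alone. Counts per base of the longest transcript and TPM of coding transcripts only were added after the data were seen. Scripts in Python 3.11.15, with pandas 2.3.3 and scipy 1.17.1, were tested on simulated data.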

Additional observations from a re-analysis of the deposited data

How the results depend on the processing

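Of 158 values recomputed under other settings, 99 stayed within the spread between the libraries or within 1.5 times a count, and 59 moved. Nearly all of them are levels, counts or spans, which have no sign to reverse. Orders did turn: by the longest transcript Cdk1 was below Ccnb1 and Ccnb2, and Birc5 below Incenp, in both libraries, at ratios of 0.616 and 0.498 for Cdk1 over Ccnb1 in replicates 1 and 2. Other scales changed the unit and so the medians over genes. For all members, the median of 25.3 TPM became 59.2 after rescaling TPM over protein-coding nuclear genes and 47.0 as CPM with TMM or with DESeq2 factors, and it was 29.6 without replicate 1 and 23.8 without replicate 2. Rescaled TPM gave medians of 73.2 for the cyclin B and spindle kinase genes, 88.8 for the APC/C group, 52.5 for the checkpoint, 107.8 for the passenger complex, 49.0 for the centromere group, 58.4 for the kinesins, 43.1 for cytokinesis and 220.8 for chromosome structure. CPM, with either factor, gave 42.9, 44.8, 52.9, 31.9, 60.2, 39.5 and 160.2 for these groups in the same order, with the APC/C group not moved. Counts per base of the longest transcript gave 27.8 for the cyclin B group, 26.6 for the APC/C group, 35.6 for the passenger complex, 32.2 for the kinesins and 63.2 for chromosome structure. Coding transcripts alone gave 16.6 for the checkpoint, 32.7 for the passenger complex, 15.9 for cytokinesis and 32.9 for chromosome structure. The number of members at the detection minimum was 25 at a minimum of 20 TPM.

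The members' median difference was -0.02 with TMM or DESeq2 factors and -0.03 for rescaled TPM. No member, 0 of 42, was past 2-fold with a pseudocount of 5 TPM, with TMM or DESeq2 factors, with rescaled TPM or with counts per base of the longest transcript, and over coding transcripts it was Cenpf (-1.09) in place of Racgap1. The span within the NDC80 complex was 2.30 as CPM and 2.27 by the longest transcript; for the passenger complex it was 1.63 and 1.85, and for cyclin B and CDK1 1.71 and 1.82. For Aurora A and TPX2 it was 2.58 as CPM, which are not corrected for length. By the longest transcript it was 3.15 for condensin I, 1.46 for centralspindlin and 1.25 for separase and securin, and for condensin I it was 2.03 over coding transcripts. The cause of these moves was not tested beyond the change of scale itself. With 2 libraries, a single gene's level in either one lies within 1 SD of their mean by construction, so leaving a library out shows nothing of its stability. No paired analysis was possible because both libraries belong to 1 group.

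Limits: 2 libraries give a spread with 1 degree of freedom, and each was made from 100 cells. Levels of genes with overlapping non-coding transcripts (Ncapd2, Smc4, Top2a, Cenpf, Racgap1) depend on how reads were shared among transcripts. RNA of other lineages differed between the libraries. Depth was not limiting for the members, the least covered of which had 310 counts.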

Other observations

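The other-lineage markers that differed more than 10-fold between the libraries fell into 3 lists. In the granulocyte list, S100a8 had 782 TPM in replicate 1 against 5.81 in replicate 2, S100a9 677 TPM in replicate 1 against 0.52 in replicate 2, Camp 170 TPM in replicate 1 against 0.06 in replicate 2, and Ngp, Lcn2 and Ltf had 182, 40.9 and 21.5 TPM in replicate 1 and were listed at 0 in replicate 2. Elane, Mpo and Ctsg had 4.70, 3.26 and 1.16 TPM in replicate 1 and 0 in replicate 2. In the B cell list, Igll1 had 0.43 TPM in replicate 1 against 41.8 in replicate 2, Vpreb1 0 TPM in replicate 1 against 32.5 in replicate 2, Dntt 0.73 TPM in replicate 1 against 18.2 in replicate 2, and Cd79a 0.62 TPM in replicate 1 against 13.9 in replicate 2. Of the T and NK cell markers, only Cd3g did so, at 12.6 TPM in replicate 1 against 1.10 in replicate 2. The 2 highest genes of that list were present in both libraries. Nkg7 had 23.0 TPM in replicate 1 against 19.2 in replicate 2, and Trbc1 12.1 TPM in replicate 1 against 11.7 in replicate 2. The list of 8 markers summed to 61.5 TPM in replicate 1 against 49.6 in replicate 2. Gp1bb, Pf4, Ppbp, Gp6, Ly86, Csf1r, Cd4 and Cd8a were under 1 TPM in both libraries.

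Beside these values, the mitotic genes had a median of 23.8 TPM in replicate 1, where the granulocyte markers were high, against 29.6 TPM in replicate 2, where the B cell markers were high. Their median difference of -0.21 on the log2(TPM + 1) scale stood beside -0.18 for all genes tested. Whether cells of other lineages contributed to the mitotic transcripts was not tested.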
